A study of Mus musculus with 10 samples.

Results

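CXC chemokines and the receptors that bind them were followed in macrophages sorted as having engulfed apoptotic cells (Eff+) or not (Eff-). The 10 genes were chosen by name from the family and its receptors, out of 55414 genes in the count tables. They are the chemokine genes Cxcl1, Cxcl2, Cxcl3, Cxcl5, Cxcl9, Cxcl16, Ppbp and Pf4 and the receptor genes Cxcr2 and Cxcr4. The wound Eff+ and wound Eff- groups (3 libraries each) were skin macrophages of LysMCreER/mTmG mice, collected 3 days after wounding from animals given tamoxifen for 6 days. In these mice a Cre recombinase driven from the lysozyme M locus, active in myeloid cells, switches a membrane reporter from red to green. The culture Eff+ and culture Eff- groups (2 libraries each) were bone marrow derived macrophages with a wild-type genotype, from 7 days of growth in GM-CSF, and all carry the label of a 12 h treatment with apoptotic fibroblasts. The names of the culture Eff- columns carry the letters NOAC, so it is unclear whether those cells had met apoptotic cells. No label gives an age, or says whether libraries of a group came from separate animals or cultures. The p-values therefore reflect the spread among these libraries alone, and that spread may be technical.

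CXC chemokines are small secreted proteins named for a pair of cysteines with a single residue between them, and they guide leukocytes through G protein coupled receptors. Ligands of CXCR2, such as CXCL1, CXCL2, CXCL3 and CXCL5, draw neutrophils out of the blood and into injured tissue, and macrophages in wounds are a known source of them. CXCL9 is induced by interferon gamma and attracts T cells through CXCR3, CXCL16 is a membrane-bound ligand of CXCR6 that also acts as a scavenger receptor, and CXCR4 is the receptor of CXCL12.

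Total counts per library ranged from 39735437 to 57308823 in the wound and from 17622740 to 27261880 in culture. The libraries numbered 2 of the wound stood apart in Lyz2, the lysozyme M gene, with 159484 counts in Eff+ and 345046 in Eff-, against 160 to 413 in the other 4. The culture libraries numbered 1 had counts in 35649 (Eff+) and 44836 (Eff-) genes, against 17575 to 19972 genes in the other 8 libraries. The label of macrophage was set against a list of 12 macrophage markers, which took 0.347 to 0.567% of counts in wound Eff+ and 0.651 to 1.62% in wound Eff- libraries. A list of 22 neutrophil markers took 3.68 to 4.63% of counts in wound Eff+ libraries, more than the macrophage list. In wound Eff- libraries it took 0.702 to 1.29%. That was more than the macrophage list in Eff- 1 (1.29 against 0.788%) and Eff- 3 (1.17 against 0.651%), and less in Eff- 2 (0.702 against 1.62%). In culture the macrophage markers took 1.88 and 5.54% in Eff+ and 0.628 and 6.63% in Eff-, and the neutrophil markers 0.191 and 0.298% in Eff+ and 0.193 and 0.358% in Eff-.

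Of the 10 genes, 6 lie on the plus strand of chromosome 5 within 146.6 kb (GRCm39, the build of the wound table), in the order Cxcl5, Ppbp, Pf4, Cxcl3, Cxcl1 and Cxcl2. Cxcl9 lies 1415.4 kb further along the same chromosome, Cxcl16 on chromosome 11, and Cxcr2 and Cxcr4 on chromosome 1. Promoters of 8 of the 10 genes were found in a RefSeq table of 32851 promoters on GRCm38.p6, each running from 250 bases before to 50 after a gene's start. Cxcl5 and Cxcl16 are named here without one. The promoters of Cxcl1, Cxcl2 and Cxcl3, the related CXCR2 ligands of the cluster, are shown because their transcripts are set against each other below. Those of Ppbp and Pf4, which lie between Cxcl5 and Cxcl3, stand beside them. Each run is 80 bases, written 5′ to 3′ on the plus strand, and the capitals mark the words described after the list.

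Cxcl1, chr5:90891154-90891233: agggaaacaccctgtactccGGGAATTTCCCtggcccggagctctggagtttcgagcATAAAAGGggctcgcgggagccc

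Cxcl2, chr5:90903782-90903861: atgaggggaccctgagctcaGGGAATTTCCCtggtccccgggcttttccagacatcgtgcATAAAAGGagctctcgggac

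Cxcl3, chr5:90786008-90786087: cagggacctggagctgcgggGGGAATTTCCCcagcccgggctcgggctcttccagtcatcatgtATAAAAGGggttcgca

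Ppbp, chr5:90768418-90768497: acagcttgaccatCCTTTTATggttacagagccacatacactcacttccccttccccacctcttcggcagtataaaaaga

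Pf4, chr5:90772335-90772414: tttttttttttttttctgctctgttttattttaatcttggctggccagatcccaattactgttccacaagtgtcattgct

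The first capitals, GGGAATTTCCC, are the longest word that the Cxcl1, Cxcl2 and Cxcl3 promoters share before the start, here on the plus strand. Its first base lies at -71 in Cxcl1, -97 in Cxcl2 and -73 in Cxcl3, counted from the start. It has the form of the sites that NF-kB proteins bind, and was found, on either strand, in 14 of the 32851 promoters (0.0426%). The second word, ATAAAAGG, begins at -34, -57 and -29 in the 3 genes and was found, on either strand, in 577 promoters (1.76%). The Ppbp promoter holds it on the minus strand only, read as CCTTTTAT at -87. The promoters of Pf4, Cxcl9, Cxcr2 and Cxcr4 hold neither word in this window. With the shared word aligned, Cxcl1 matched Cxcl2 at 35 of 80 bases and Cxcl3 at 35, and Cxcl2 matched Cxcl3 at 29. The first word was found by a search for letters that these 3 promoters share, and the second was not taken from that search. Both are described as letters in a window, not as bound sites.

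The first comparison asked how wound macrophages that had engulfed apoptotic cells differed in these transcripts from those that had not. Cxcr2, the neutrophil chemokine receptor, was 6.35-fold higher in wound Eff+ than in wound Eff- libraries, and Cxcl16 was 1.77-fold lower, and these were the 2 genes of the 10 called. Cxcl2 was the most abundant of the 10 transcripts in every wound library, but it was not called. Its groups did not overlap on scaled library sizes, but did overlap as shares of all counts. All 10 genes passed the filter on low counts. They were tested among 14908 genes with edgeR's quasi-likelihood test, and genes with a Benjamini-Hochberg adjusted p under 0.05 were called. Of all tested genes 11.2% were called, 7.39% as higher and 3.79% as lower in Eff+, so 1 of 10 in each direction is near the background. The median log2 fold change of the 10 genes was -0.10, against -0.03 for all tested genes. Fewer cells of a type and less RNA per cell cannot be told apart in such bulk libraries.

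**Figure D1:**
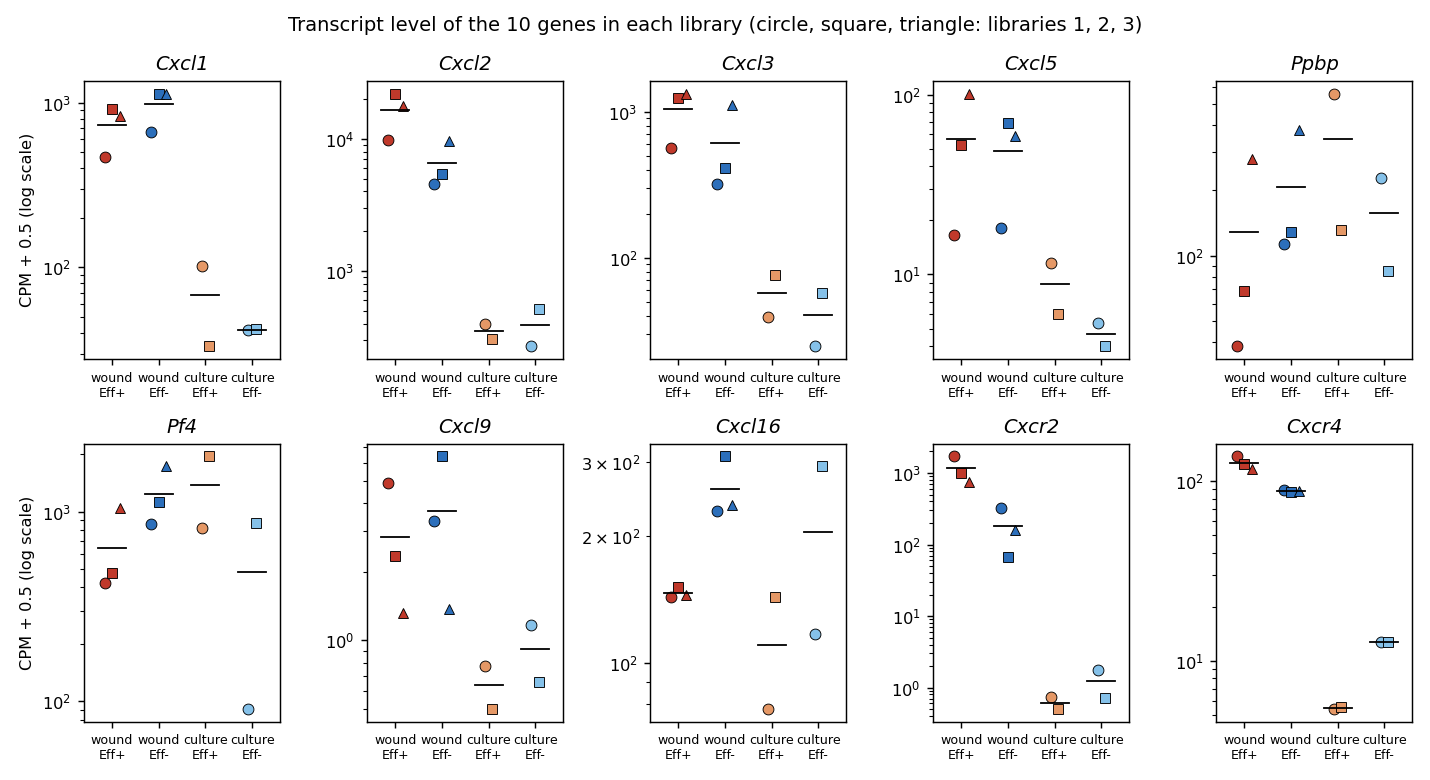
Levels of the 10 genes in CPM (plus 0.5, on a log axis with its own range in each panel) in the 10 libraries, with a line at each group's mean. In the wound, Cxcl2, Cxcr2 and Cxcr4 of all 3 Eff+ libraries lie above all 3 Eff- libraries and Cxcl16 lies below them, while the other 6 genes overlap.

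Among the CXCR2 ligands, Cxcl2 encodes a chemokine that macrophages release within hours of a stimulus. Cxcl2 had, on scaled library sizes, 9875, 22017 and 17905 CPM in wound Eff+ libraries, against 4525, 5388 and 9651 CPM in wound Eff- libraries. The lowest Eff+ library stood just above the highest Eff- library. Its log2 fold change was 1.35 (SE 0.39, 95% interval 0.45 to 2.25), with an adjusted p of 0.0624 in edgeR's test. Cxcl2 passed the threshold when library Eff+ 1 was left out (1.61, adjusted p = 0.042) or library Eff- 3 (1.72, adjusted p = 0.05), and its fold change was 1.09 (adjusted p = 0.211) without Eff+ 2. Neutrophil markers also took more of the counts in wound Eff+ (3.68 to 4.63%) than in wound Eff- libraries (0.702 to 1.29%). Their part in the Cxcl2 level was not tested. The share of genes whose groups did not overlap was 36.8% of those tested, 18.7% with Eff+ higher and 18.1% with Eff+ lower. Of the 10 genes, 3 did not overlap with Eff+ higher (Cxcl2, Cxcr2, Cxcr4) and 1 with Eff+ lower (Cxcl16), which is near that background.

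Cxcl2 alone took 0.876, 1.79 and 1.65% of all counts in wound Eff+ libraries, against 0.519, 0.642 and 1.06% in wound Eff- libraries. Per unit of gene length, in TPM (counts over gene length, scaled to the same sum in each library), it ranked 10th, 5th and 5th of all genes in the Eff+ libraries and 16th, 12th and 6th in the Eff- libraries. On both measures the Cxcl2 groups overlapped, with Eff+ 1 (0.876%, 10783 TPM) below Eff- 3 (1.06%, 13994 TPM). With library totals only, its log2 fold change was 0.96 (adjusted p = 0.0812, edgeR). The 10 genes together took 1.19 to 2.12% of counts in wound Eff+ and 0.819 to 1.6% in wound Eff- libraries.

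Cxcl3 encodes a close relative of CXCL2. Cxcl3 had 568, 1234 and 1329 CPM in wound Eff+ libraries, against 318, 410 and 1116 CPM in wound Eff- libraries. The groups overlapped through Eff- 3, and the log2 fold change was 0.76 (SE 0.51, 95% interval -0.42 to 1.94, adjusted p = 0.362, edgeR). It was 1.5 (adjusted p = 0.072) without Eff- 3 and 0.43 without Eff- 1. Cxcl1, the ligand often used to read neutrophil recruitment in mice, had a fold change of the other sign. Cxcl1 had 467, 915 and 825 CPM in wound Eff+ libraries, against 667, 1125 and 1134 CPM in wound Eff- libraries. The groups overlapped, with a log2 fold change of -0.41 (SE 0.31, 95% interval -1.13 to 0.31, adjusted p = 0.426, edgeR), and -0.64 to -0.16 with 1 library left out.

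Cxcl5, which encodes a ligand made mainly by epithelial and stromal cells, had 16, 51.8 and 101 CPM in wound Eff+ libraries, against 17.6, 69.1 and 58.4 CPM in wound Eff- libraries. Its range spanned that of Eff- on both sides, and its log2 fold change of 0.22 (SE 0.67, adjusted p = 0.86, edgeR) was -0.16 when libraries were scaled by their totals only. The fibroblast marker list, in which Acta2 and Col6a3 were called higher among 15 tested (7 by DESeq2 and 10 with the replicate block, Acta2 not without Eff+ 2, Col6a3 with 5 libraries only without Eff+ 1, and not by limma-voom, adjusted p = 0.0618, or with totals only, 0.0519), took 0.115, 0.176 and 0.341% of counts in Eff+ libraries, against 0.111, 0.276 and 0.234% in Eff- libraries. Library 1 was the lowest of each group in both Cxcl5 and these markers, and their part in the Cxcl5 level was not tested. Of 12 keratinocyte markers 5 were tested and Krt14, Krt5 and Perp were called higher, with a summed share of 0.00362 to 0.00602% of counts in Eff+ and 0.0006 to 0.00195% in Eff-. Krt14 had 3.49 to 16.95 CPM in Eff+ libraries and no count in any Eff- library, where 3 counts correspond to 0.068 to 0.0755 CPM on library totals. All 3 were lost without Eff+ 2, Perp when any single library was left out, and Krt5 when any single Eff- library was. Krt14 (adjusted p = 0.0585) and Krt5 (0.127) were not called by limma-voom either.

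Because transcripts of different length are compared here, the balance of the CXCR2 ligands was taken in TPM. Cxcl2 made up 91.3, 92.0 and 88.4% of the summed TPM of Cxcl1, Cxcl2, Cxcl3, Cxcl5 and Ppbp in wound Eff+ libraries, against 79.6, 74.9 and 78.1% in wound Eff- libraries. Cxcl1 made up 4.76, 4.22 and 4.49% in Eff+, against 12.9, 17.3 and 10.1% in Eff-. Neither share overlapped between the groups.

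The ratio of Cxcl2 to Cxcl1 TPM was 19.2, 21.8 and 19.7 in wound Eff+ libraries, against 6.15, 4.34 and 7.71 in wound Eff- libraries. The 3 Eff+ ratios lay close together and well above the 3 Eff- ratios, and a ratio within a library does not depend on how libraries are scaled. A two-sided exact permutation test gave p = 0.1, the smallest that 3 against 3 libraries allow, and the ratio was chosen after its values were seen. The ratio of Cxcl1 to Cxcl3 was 1.53, 1.38 and 1.16 in Eff+ and 3.92, 5.12 and 1.90 in Eff-, also without overlap (exact permutation p = 0.1). The ratio of Cxcl2 to Cxcl3 was 29.4, 30.2 and 22.8 in Eff+ and 24.1, 22.2 and 14.6 in Eff-, and overlapped (exact permutation p = 0.2). In all 5 ratios were tested in this way, with those of Pf4 to Ppbp and of Cxcr2 to neutrophil markers below, and their p-values were not adjusted. These are ratios of transcripts that resemble each other in sequence, and how reads that fit more than 1 of the genes were counted was not tested.

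**Figure D2:**
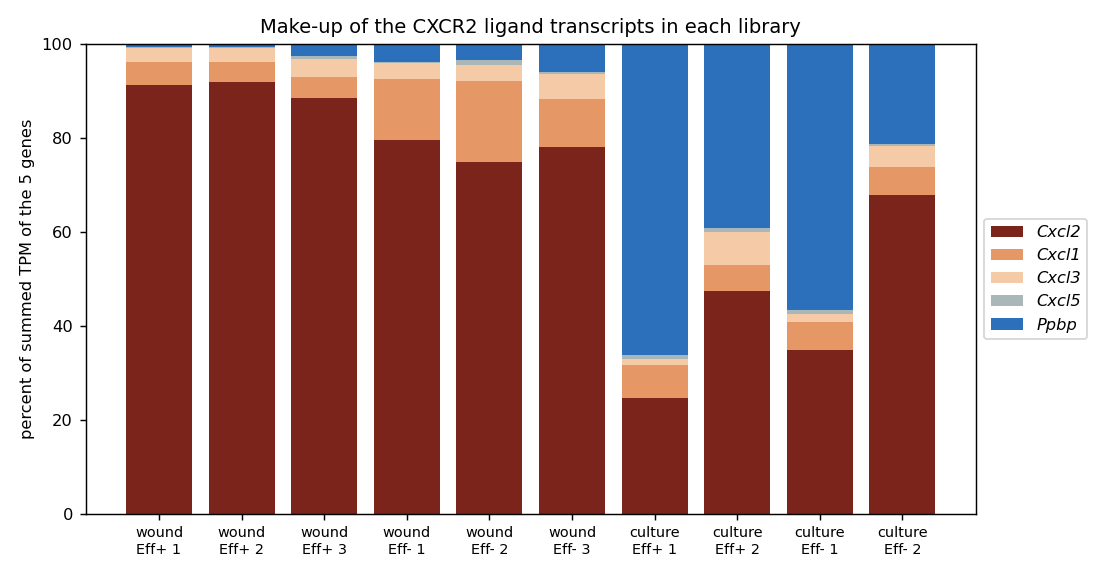
Make-up of the summed TPM of 5 CXCR2 ligand genes in each library, in percent. Cxcl2 fills 88.4 to 92.0% of the wound Eff+ bars and 74.9 to 79.6% of the wound Eff- bars, while Ppbp is the larger part in both culture libraries numbered 1.

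Over the 6 wound libraries, the profile of Cxcl2 lay nearest to that of Cxcl3 among the other 9 genes. The root mean square difference of their centred log2(CPM + 0.5) values was 0.344, against 0.920 between Cxcl2 and Cxcl1. Outside the family, the nearest profiles to Cxcl2 among 8162 genes were those of Bcl2l11 (0.093), Rab11fip1 (0.093) and Clec4e (0.095). Bcl2l11 encodes the pro-apoptotic protein BIM, and Clec4e encodes Mincle, a receptor for damaged cells and microbial glycolipids. Clec4e had 7284, 13654 and 11333 CPM in Eff+ libraries, against 3045, 3526 and 5801 CPM in Eff- libraries.

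Ppbp and Pf4 encode the chemokines best known from platelet granules, and lie 9.2 and 13.1 kb from the start of Cxcl5. Ppbp had 37.7, 68.4 and 279 CPM in wound Eff+ libraries, against 113, 128 and 380 CPM in wound Eff- libraries. Pf4 had 417, 476 and 1042 CPM in wound Eff+ libraries, against 859, 1119 and 1729 CPM in wound Eff- libraries. Library 3 was the highest of its group for both genes, and the groups overlapped through it. The log2 fold changes were -0.69 (SE 0.75, 95% interval -2.43 to 1.05, adjusted p = 0.587) for Ppbp and -0.94 (SE 0.40, 95% interval -1.87 to -0.01, adjusted p = 0.165) for Pf4, both from edgeR. Over the fits that left out 1 library, Ppbp went as high as 0.078 without Eff- 3 and as low as -1.97 without Eff+ 3, and Pf4 as high as -0.63 without Eff- 3 and as low as -1.47 without Eff+ 3 (adjusted p = 0.0549).

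The distance between the Pf4 and Ppbp profiles was 0.533, while Pf4 lay at 0.504 from Cxcl1 and 0.541 from Cxcl16. The Pf4 to Ppbp TPM ratio overlapped, at 16.6, 10.4 and 5.60 in Eff+ and 11.4, 13.1 and 6.83 in Eff- (exact permutation p = 1). A list of 16 other platelet and megakaryocyte markers took 0.00133 to 0.00184% of counts in wound Eff+ and 0.00149 to 0.00199% in wound Eff- libraries. Of its 9 genes tested 6 had positive fold changes (median 0.80) and none was called. Gp9, part of the platelet receptor of von Willebrand factor, had 0, 0 and 2 counts in Eff+ libraries and none in Eff-, and Itga2b, the platelet integrin subunit, had 36, 16 and 26 counts in Eff+, against 12, 63 and 0 in Eff-. Pf4 had 18448 to 48390 counts in the same Eff+ libraries and 43249 to 75349 in the Eff- libraries. The part of platelets in the Pf4 and Ppbp levels was not tested.

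Along the chromosome 5 cluster, the estimates of some neighbours differed in sign. Between Cxcl5 and Cxcl3, both with positive fold changes in the wound, Ppbp and Pf4 had negative ones, and Cxcl1 and Cxcl2, which start 12.6 kb apart, had fold changes of opposite sign. None of the 6 passed the test.

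**Figure D3:**
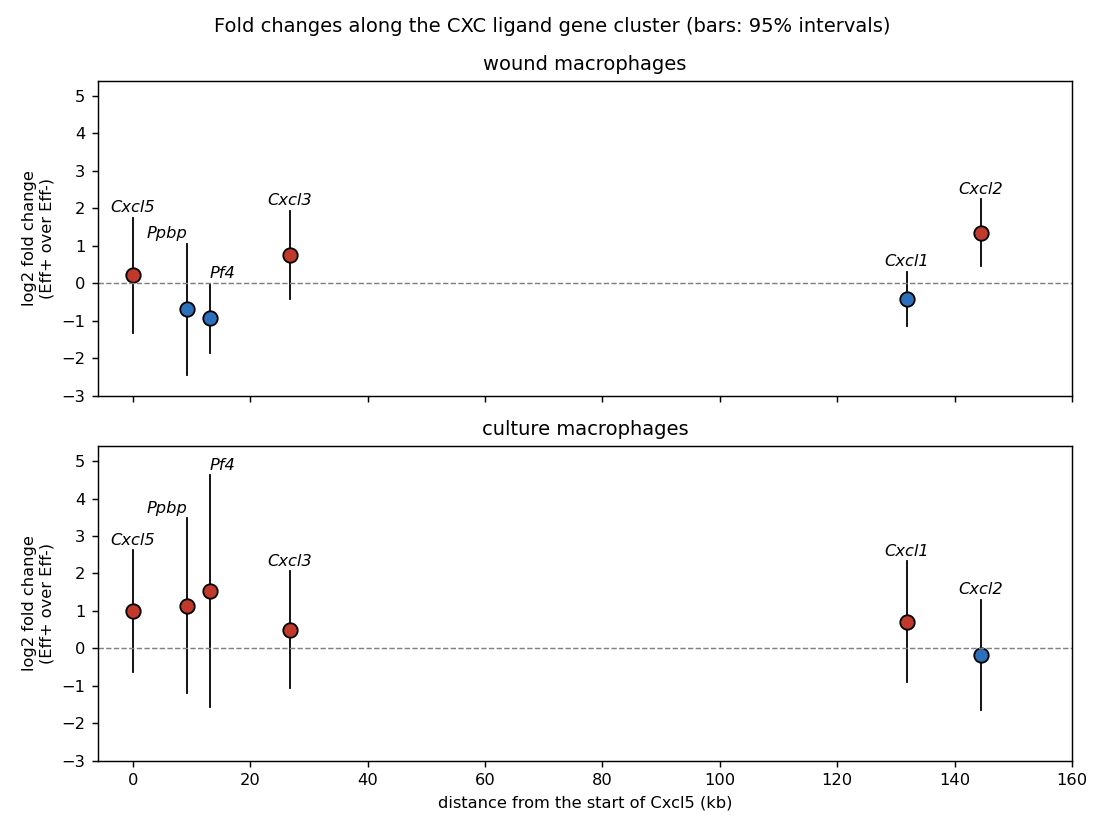
Log2 fold change of Eff+ over Eff- with its 95% interval for the 6 genes of the chromosome 5 cluster, against the distance of each start from that of Cxcl5 in kb, red above 0 and blue below. In the wound, Cxcl2 at 144.5 kb is at 1.35 and Cxcl1 at 131.9 kb is at -0.41, and in culture every interval includes 0.

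Cxcl9 was the least abundant of the 10 transcripts in the wound. Cxcl9 had 4.39, 1.84 and 0.82 CPM in wound Eff+ libraries, against 2.82, 5.90 and 0.87 CPM in wound Eff- libraries. The groups overlapped (log2 fold change -0.45, SE 0.79, adjusted p = 0.748, edgeR), and the value was 0.31 without library Eff- 2. Ifng, which encodes the cytokine that induces Cxcl9, had no count in 5 of the 6 wound libraries.

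Cxcl16, whose protein binds CXCR6 and also takes up oxidised lipids and binds phosphatidylserine, the lipid exposed by apoptotic cells, fell in Eff+ macrophages of the wound. Cxcl16 had 143, 151 and 144 CPM in wound Eff+ libraries, against 230, 309 and 237 CPM in wound Eff- libraries. The groups did not overlap and the Eff+ libraries lay within 10 CPM of each other. Its log2 fold change was -0.82 (SE 0.17, 95% interval -1.22 to -0.43, adjusted p = 0.0255, edgeR), with Eff+ lower under every scaling and filter tried. With 5 libraries the call held only without Eff- 3 (-0.91, adjusted p = 0.0467). The value was -0.81 (adjusted p = 0.0511) without Eff+ 1, -0.85 (0.108) without Eff+ 2, -0.82 (0.0726) without Eff+ 3, -0.92 (0.0559) without Eff- 1 and -0.70 (0.0889) without Eff- 2.

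Along 552 bases Cxcl16 overlaps Zmynd15 on the other strand, and the counting had no strand option. Zmynd15 had at most 796 counts in any library, and Cxcl16 at least 6311 in the wound. The effect of reads from the shared bases on the Cxcl16 counts was not tested. The macrophage markers moved the same way as Cxcl16. Of 12 tested, 6 fell in wound Eff+ libraries, among them the complement genes C1qa (log2 fold change -1.19, SE 0.19, adjusted p = 0.0129) and C1qb (-1.22, SE 0.22, adjusted p = 0.0183), the transcription factor Maf and the mannose receptor Mrc1. The calls were lost without Eff+ 2 (-1.07) or Eff- 2 (-1.14) for C1qa, and without Eff+ 2, Eff+ 3, Eff- 1 or Eff- 2 (-1.19 to -1.11) for C1qb. With 5 libraries Maf (-1.15, adjusted p = 0.0304) was called only without Eff+ 1 (-1.29 to -0.96 without another), and Mrc1 (-1.03, adjusted p = 0.0314) was lost without Eff+ 2, Eff+ 3, Eff- 1 or Eff- 2 (adjusted p = 0.0855 to 0.134). The 6 calls of the list became 2 without Eff+ 3, 1 without Eff- 1, 4 without Eff- 3, 0 without Eff+ 2 or Eff- 2, and 10 with totals only. Their part in the Cxcl16 result was not tested. The nearest profiles to Cxcl16 outside the family were those of Pgls (0.058), Cltb (0.064) and Ddrgk1 (0.071), which encode an enzyme of the pentose phosphate pathway, a clathrin light chain and a regulator of protein ufmylation.

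Cxcr2 encodes the receptor of Cxcl1, Cxcl2, Cxcl3, Cxcl5 and processed Ppbp products, and is a hallmark of neutrophils. Cxcr2 had 1708, 1014 and 750 CPM in wound Eff+ libraries, against 320, 67.2 and 160 CPM in wound Eff- libraries. The lowest Eff+ library had more than the highest Eff- library, and the log2 fold change was 2.67 (SE 0.57, 95% interval 1.36 to 3.98, adjusted p = 0.0269, edgeR). With 5 libraries the call held without Eff+ 3 (2.90, adjusted p = 0.0462) and without Eff- 1 (3.33, adjusted p = 0.0339). It was lost without Eff+ 1 (2.27, adjusted p = 0.0531), Eff+ 2 (2.75, 0.101), Eff- 2 (2.24, 0.071) and Eff- 3 (2.55, 0.0799), with Eff+ higher in each.

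The neutrophil markers moved with Cxcr2. Of 22 neutrophil markers tested, all had positive fold changes (median 2.37) and 18 were called higher in wound Eff+, led by Stfa2l1, S100a8 and S100a9, whose calls were lost only without Eff+ 2 (2.42, 2.53 and 2.56, each with an adjusted p of 0.0576) and without both libraries numbered 2. The 18 calls became 0 in those fits and 12 without Eff- 2. Their summed share was 4.63, 4.24 and 3.68% of counts in Eff+ libraries, against 1.29, 0.702 and 1.17% in Eff- libraries. Ly6g, the defining surface marker of mouse neutrophils, had 38.5, 32.8 and 20.9 CPM in Eff+, against 5.80, 2.97 and 5.28 CPM in Eff-. Per 100 counts of the 22 markers, Cxcr2 had 3.27, 1.95 and 1.88 counts in Eff+ libraries and 2.85, 1.14 and 1.5 in Eff- libraries. These values overlapped (two-sided exact permutation p = 0.4, where 0.1 is the smallest possible). The part of the neutrophil markers in the Cxcr2 result was not tested beyond this.

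The profiles nearest to Cxcr2 were those of Nlrp12 (0.122), G0s2 (0.146) and H2-Q10 (0.16). Nlrp12 encodes a myeloid pattern recognition protein and G0s2 an inhibitor of lipolysis. G0s2 had 2294, 1563 and 1046 CPM in Eff+ libraries, against 428, 121 and 238 CPM in Eff- libraries.

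**Figure D4:**
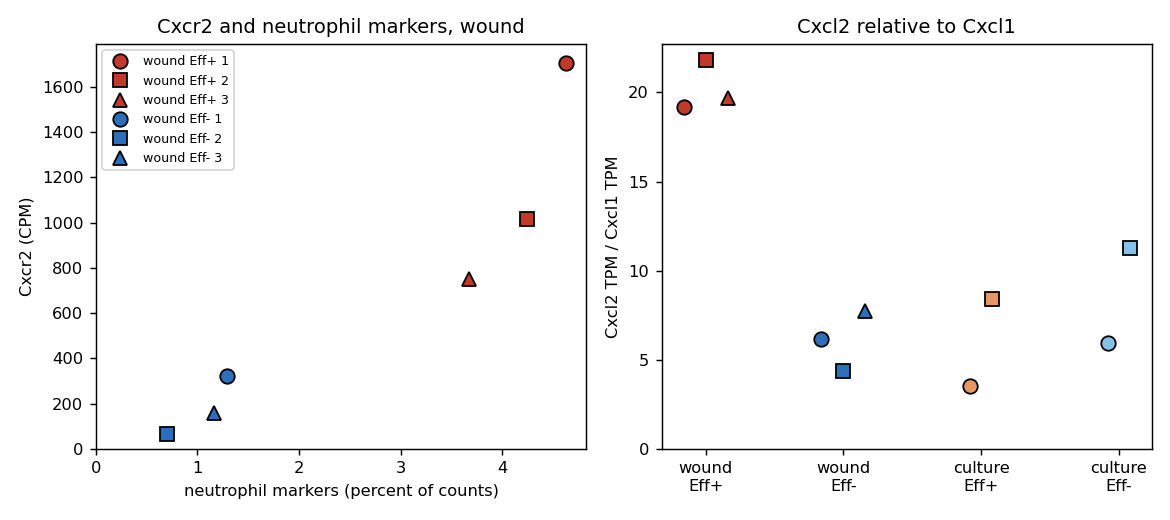
Left, Cxcr2 in CPM against the share of counts taken by 22 neutrophil markers in the 6 wound libraries, and right, the ratio of Cxcl2 to Cxcl1 TPM in all 10 libraries. The Eff+ libraries, at 3.68 to 4.63% neutrophil markers, have 750 to 1708 CPM of Cxcr2, and their Cxcl2 to Cxcl1 ratios of 19.2 to 21.8 lie above those of all other libraries.

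Cxcr4 encodes the CXCL12 receptor that retains leukocytes in bone marrow and marks aged neutrophils. Cxcr4 had 137, 125 and 116 CPM in wound Eff+ libraries, against 88.7, 86.9 and 88.1 CPM in wound Eff- libraries. The groups did not overlap on this scale, and the log2 fold change was 0.52 (SE 0.14, 95% interval 0.19 to 0.85, adjusted p = 0.0559, edgeR). The difference rests on the scaling. With library totals only, which put the median of all genes at -0.42, it was 0.12 (adjusted p = 0.586), and in TPM, without that scaling, the groups overlapped at 171, 144 and 155 in Eff+ and 151, 153 and 146 in Eff-.

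In order of mean TPM, wound Eff+ libraries had Cxcl2 (18010 ± 6294, SD, n = 3), Pf4 (2063 ± 1245), Cxcl1 (883 ± 278), Cxcr2 (853 ± 361), Cxcl3 (675 ± 282), Ppbp (279 ± 301), Cxcr4 (157 ± 13.3), Cxcl16 (109 ± 5.75), Cxcl5 (69.4 ± 56.5) and Cxcl9 (1.74 ± 1.37). The ranges of neighbours in this order were separate for Cxcl2 over Pf4, Pf4 over Cxcl1, Cxcr4 over Cxcl16 and Cxcl5 over Cxcl9, and overlapped for the others. Wound Eff- libraries had Cxcl2 (9662 ± 3832, SD, n = 3), Pf4 (5259 ± 1789), Cxcl1 (1604 ± 446), Ppbp (583 ± 408), Cxcl3 (536 ± 367), Cxcl16 (265 ± 52.6), Cxcr2 (183 ± 128), Cxcr4 (150 ± 3.35), Cxcl5 (80.2 ± 46.0) and Cxcl9 (3.32 ± 2.70). Here Cxcl2 and Pf4 overlapped. Cxcr2 was 4th in Eff+ and 7th in Eff-.

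**Figure D5:**
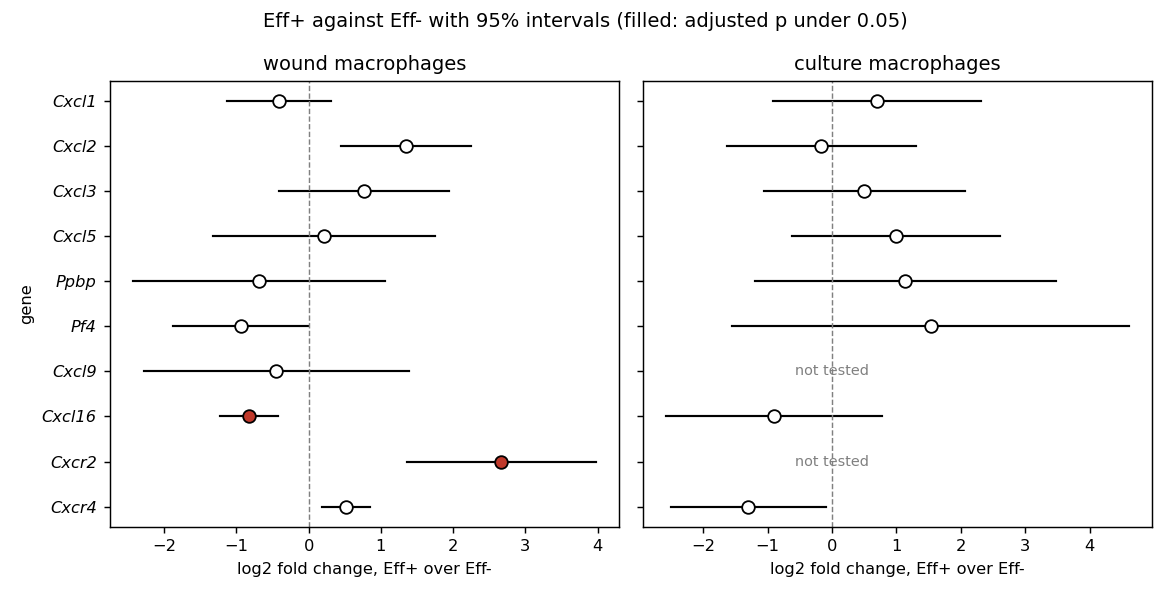
Log2 fold change of Eff+ over Eff- for the 10 genes with 95% intervals, in wound and culture macrophages, filled where the adjusted p was under 0.05. Cxcr2 at 2.67 and Cxcl16 at -0.82 are filled in the wound, and no gene is filled in culture.

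The second comparison set Eff+ against Eff- in cultured macrophages. No gene was called among the 14867 tested (0% in either direction, smallest adjusted p = 1, 115 genes at an unadjusted p under 0.05, edgeR), and by DESeq2 2 genes were, none of them among the 10. Cxcl9 and Cxcr2 were too low to be tested. Cxcr2 had 6 and 0 counts in culture Eff+ libraries and 28 and 4 in culture Eff- libraries, and Cxcl9 had 7 and 0 counts in Eff+ and 15 and 3 in Eff-. A count of 0 in library Eff+ 2 allows up to 3 counts, or 0.11 CPM on that library's total, by counting error only. Of the neutrophil markers, Ly6g had at most 0.27 CPM in culture.

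Pf4 had the highest mean TPM of the 10 in both culture groups, at 5201 ± 2148 TPM in Eff+ and 1637 ± 1579 TPM in Eff- libraries (SD, n = 2 each). In library Eff- 1, at 521 TPM, it was below Ppbp (875 TPM) and Cxcl2 (538 TPM). Pf4 had 814 and 1954 CPM in culture Eff+ libraries, against 90.4 and 867 CPM in culture Eff- libraries. The groups overlapped, since Eff- 2 stood above Eff+ 1, and the log2 fold change was 1.53 (SE 1.2, 95% interval -1.55 to 4.62, adjusted p = 1, edgeR). The value was 0.71 without Eff- 1 and 4.24 without Eff- 2 (adjusted p = 0.0738). Ppbp had 558 and 131 CPM in Eff+, against 228 and 85 CPM in Eff-. Its value was 1.14 (SE 0.90) with all libraries and -0.22 without library Eff+ 1. Platelet markers took 0.0078 to 0.0092% of counts in culture Eff+ and 0.00821 to 0.00866% in culture Eff-.

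The inflammatory ligands had lower CPM in culture than in the wound, though cell source, growth, genotype and table all differ between the models and no test was made. Cxcl2 had 396 and 303 CPM in culture Eff+ libraries, against 268 and 517 CPM in culture Eff- libraries. Cxcl1 had 102 and 32.6 CPM in Eff+, against 41.0 and 41.6 CPM in Eff-, and Cxcl3 had 39.0 and 75.3 CPM in Eff+, against 24.2 and 56.5 CPM in Eff-. These groups overlapped, with log2 fold changes of -0.17 (SE 0.57) for Cxcl2, 0.71 (SE 0.63) for Cxcl1 and 0.50 (SE 0.60) for Cxcl3. The sign of the Cxcl2 value turned without Eff+ 2 (0.08) or Eff- 2 (0.67), and that of Cxcl1 without Eff+ 1 (-0.30), while that of Cxcl3 ran between 0.0092 without Eff+ 2 and 1.54 without Eff- 2.

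The ratio of Cxcl2 to Cxcl1 TPM was 3.51 and 8.41 in culture Eff+ libraries, against 5.92 and 11.3 in culture Eff- libraries, with no separation of the kind seen in the wound. Cxcl16 had 77.2 and 143 CPM in Eff+, against 116 and 293 CPM in Eff-, and overlapped (-0.90, SE 0.65, and 0.21 without Eff- 2).

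Cxcl5 and Cxcr4 were the 2 of the 8 tested genes whose culture groups did not overlap, against 20.7% of all tested genes, 11.3% with Eff+ higher and 9.42% with Eff+ lower. Cxcl5 had 11.1 and 5.52 CPM in culture Eff+ libraries, against 4.85 and 3.48 CPM in culture Eff- libraries (log2 fold change 1.00, SE 0.63, 95% interval -0.62 to 2.61, and 0.45 without Eff+ 1). Cxcr4 had 4.89 and 5.03 CPM in Eff+, against 12.3 and 12.2 CPM in Eff-. The Cxcr4 libraries of a group were nearly equal, and the log2 fold change was -1.30 (SE 0.47, 95% interval -2.51 to -0.09, adjusted p = 1, edgeR). With 2 libraries a group, this test called no gene of the table. Dendritic cell markers were also at a lower share in both Eff+ libraries, with 0.00631 and 0.00223% of counts in culture Eff+ and 0.0686 and 0.0177% in culture Eff- libraries. Of 9 tested 1 had a positive fold change (median -3.23) and none was called, and their part in the Cxcr4 level was not tested.

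The third comparison asked whether the difference between Eff+ and Eff- itself differed between wound and culture, in 1 fit of all 10 libraries. No gene was called among 20270 (0% in either direction, smallest adjusted p = 0.1, with 2222 genes at an unadjusted p under 0.05, edgeR), while DESeq2 called 797. Cxcr4 had the smallest p of the 10 genes. Its difference of log2 fold changes, wound minus culture, was 1.83 (SE 0.35, 95% interval 1.07 to 2.60, adjusted p = 0.116), and it ranged from 1.55 to 1.96 over the alternatives tried. It was called without culture Eff- 2 (1.79, adjusted p = 0.0076) and by DESeq2 (1.96, adjusted p = 4.01e-08). For Cxcr2 the difference was 5.29 (SE 1.41, 95% interval 2.19 to 8.38, adjusted p = 0.237), resting on 0 to 28 counts in each culture library. It was called without culture Eff- 2 (5.99, adjusted p = 0.00311) and by DESeq2 (5.49, adjusted p = 0.0016). The values were 1.53 (SE 0.75, adjusted p = 0.487) for Cxcl2 and -2.45 (SE 1.12, adjusted p = 0.456, called without culture Eff- 2 at -4.92, adjusted p = 0.00121) for Pf4, and the adjusted p of the remaining 6 genes was 0.587 or more. The median difference over all tested genes was 0.32.

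The other genes of the pathway were read in the wound, from lists chosen with earlier results of these data known, and none of their genes was called in culture or in the difference between models. Leaving out wound library Eff+ 2, or both libraries numbered 2, left no gene of the whole table called, so each call that follows was lost there. Of 7 other CXC ligands 6 were tested and none was called by edgeR, while DESeq2 and the replicate block each called 1 higher. All 6 had positive fold changes (median 0.85, against -0.03 for all tested genes). Cxcl10, the interferon-induced partner of Cxcl9, had 64.7, 49.1 and 45.0 CPM in wound Eff+ libraries, against 54.8, 26.6 and 32.8 CPM in wound Eff- libraries, and Cxcl12, the CXCR4 ligand, had 20.1, 48.4 and 44.6 CPM in Eff+, against 5.52, 33.3 and 13.7 CPM in Eff-. Both overlapped. Cxcl13, Cxcl14, Cxcl11 and Cxcl15 reached at most 23.62 CPM in any wound library, and Cxcl17 had 3 counts in 1 wound library.

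Among 8 other receptors that bind CXC chemokines, 5 were tested and Cxcr1 and Cxcr5 were called. Cxcr1, a neutrophil receptor, had 23.2, 23.2 and 18.5 CPM in wound Eff+ libraries, against 4.19, 0.69 and 5.16 CPM in wound Eff- libraries. It rose by 2.70 on the log2 scale (SE 0.62, adjusted p = 0.0343), a call that with 5 libraries held only without Eff- 2 (2.18, adjusted p = 0.0358), with 2.64 to 3.12 without another. Cxcr5, the CXCL13 receptor best known from B cells, had 21.3, 13.2 and 14.9 CPM in Eff+, against 4.27, 2.63 and 2.75 CPM in Eff-. It rose by 2.36 (SE 0.31, adjusted p = 0.0097) and was lost only without Eff+ 2 (2.49, adjusted p = 0.0576) and without both libraries numbered 2 (2.36, adjusted p = 0.198). Cxcr6, the receptor of CXCL16, had 0, 30 and 14 counts in Eff+, against 58, 104 and 12 in Eff-, and Cxcr3, the receptor of CXCL9, had 4.86 to 5.83 CPM in Eff+ and 3.07 to 7.11 CPM in Eff-. The atypical receptors Ackr1, Ackr2 and Ackr4 had at most 41 counts in any wound library, and Ackr3 overlapped between the groups.

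Of 26 genes of receptor signalling and desensitisation, 2 rose, near the 7.39% of all tested genes that were called higher. They were the G protein subunit Gnai3 (log2 fold change 0.82, SE 0.19, adjusted p = 0.0329) and the GTPase Rac2 (0.96, SE 0.24, adjusted p = 0.042), and the list's median was 0.04. With totals-only scaling neither was called (0.42 and 0.56), and 5 of the 26 were called lower. Gnai3 was also lost without Eff+ 2, Eff+ 3, Eff- 1 or Eff- 2 (0.69 to 0.88), and Rac2 when any single library but Eff+ 3 was left out (0.82 to 1.12). Of 11 tested proteases that cut CXC chemokines, Mmp9, a gelatinase stored in neutrophil granules and also in the neutrophil list, rose by 1.85 (SE 0.25, adjusted p = 0.0098, and 1.70 without Eff+ 2). Adam10, the sheddase that releases CXCL16 from the membrane, had 123, 96.7 and 105.8 CPM in wound Eff+ libraries, against 177, 151 and 176 CPM in wound Eff- libraries. It fell by 0.63 (SE 0.16, adjusted p = 0.0469), and its call held, with 5 libraries, only without Eff+ 1 (-0.72 to -0.55 without another) and was lost with RLE scaling (-0.60) and with no filter (-0.66).

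Of 22 genes that control NF-kB and the stability of chemokine mRNA, 19 had positive fold changes (median 0.58) and 1 was called. Nfkbia, the NF-kB inhibitor that NF-kB itself induces, had 7188, 15477 and 12613 CPM in wound Eff+ libraries, against 3769, 4440 and 6406 CPM in wound Eff- libraries. Like Cxcl2 it was highest in Eff+ 2 and did not overlap in CPM, and it rose by 1.27 (SE 0.33, adjusted p = 0.049). With 5 libraries its call held only without Eff+ 1 (1.02 to 1.5 without another), and with totals only it was 0.88 (adjusted p = 0.0663). The count of 1 depended on the fit: 8 of the 22 were called higher without Eff+ 1, 4 by limma-voom or with no filter, 5 with a 1 CPM filter, 7 by DESeq2 and 10 with the replicate block, and none with totals only or without Eff+ 2, Eff+ 3, Eff- 1 or Eff- 2.

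Of 13 tested inducers of these ligands and their receptors, 3 rose in wound Eff+ libraries (median 0.94). They were Il1b (1.25, SE 0.21, adjusted p = 0.0151), the interleukin 17 receptor chain Il17ra (0.94, SE 0.22, adjusted p = 0.035) and the endotoxin receptor Tlr4 (1.16, SE 0.29, adjusted p = 0.0424). Il1b had 8402, 8593 and 7922 CPM in Eff+, against 3488, 2799 and 4212 CPM in Eff-, and its call was also lost without Eff- 1 (1.22, adjusted p = 0.0611) and Eff- 2 (1.08, adjusted p = 0.0644). Il17ra and Tlr4 were not called with totals only (0.54 and 0.79). With 5 libraries Il17ra was called only without Eff+ 1 (0.70 to 0.99 without another) and Tlr4 only without Eff- 3 (0.89 to 1.25 without another). DESeq2 called 7 of the 13 higher, as did the fit with the replicate block, which called 1 lower.

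Of 18 tested genes of the interferon gamma programme, which controls Cxcl9, 4 rose and 1 fell (median 0.19). Of all tested genes 7.39% were called higher and 3.79% lower. The list had 5 higher and 1 lower by DESeq2, 6 and 2 with the replicate block, and 2 and 1 with totals only. The kinase Jak1 (0.79, SE 0.16, adjusted p = 0.0243), the guanylate-binding protein Gbp5 (1.56, SE 0.35, adjusted p = 0.0318), the PD-L1 gene Cd274 (1.52, SE 0.34, adjusted p = 0.0322) and the transcription factor Irf1 (0.84, SE 0.21, adjusted p = 0.0423) rose, and the myeloid factor Irf8 (-0.89, SE 0.19, adjusted p = 0.028) fell. Jak1 and Irf1 were not called with totals only (0.40 and 0.45). With 5 libraries Irf1 was not called whichever library was left out (0.63 to 0.93), and Jak1 (0.71 to 0.81) and Irf8 (-0.98 to -0.73) were called only without Eff+ 1. Gbp5 was lost without Eff+ 1, Eff+ 2, Eff- 2 or Eff- 3 (1.34 to 1.54), and Cd274 without Eff+ 2, Eff+ 3, Eff- 1 or Eff- 2 (1.28 to 1.49).

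Among markers of other cells in the wound, none was called of 7 endothelial, 5 T and NK cell and 10 dendritic cell markers tested by edgeR, while DESeq2 called 1 endothelial and 1 T and NK cell marker lower and 1 dendritic cell marker higher. All 7 endothelial markers had negative fold changes (median -1.15), their summed share was 0.00314 to 0.00331% of counts in Eff+ and 0.00518 to 0.00741% in Eff- libraries, and 4 were called lower with totals only, as was 1 marker of each other list. T and NK cell markers took 0.000393 to 0.000619% in Eff+ and 0.000932 to 0.00125% in Eff-, also without overlap. Of the 5 T and NK cell markers tested, however, 3 had positive fold changes (median 0.09). Dendritic cell markers took 0.00276 to 0.00376% in Eff+ and 0.0034 to 0.00672% in Eff-, and overlapped. The part of these markers in the lower Cxcl16 of Eff+ libraries was not tested.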

How the data were processed

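The authors deposited whole-number read counts per gene, not normalised. For the wound libraries the authors counted with featureCounts 1.6.0 at default settings, with no strand option, on Ensembl release 106 (GRCm39), per the file headers, which also give the gene lengths used for TPM. Trimmomatic 0.39 is named in the submitters' processing notes. Neither the aligner nor the counting of culture reads is given in the sources used here. The culture table has 4 more columns that fit no label, left unused. GENCODE vM21 named 52081 of the 55414 identifiers, holding 99.91% of counts. Promoters were those of RefSeq.

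Wound and culture libraries were fitted separately with edgeR 4.0.16 under R 4.3.3 (TMM scaling, filterByExpr, quasi-likelihood test without covariate, Benjamini-Hochberg adjustment over all tested genes, calls under 0.05), and all 10 libraries together for the difference between models. CPM use TMM-scaled library sizes within a model. TPM are counts over gene length, scaled to each library's sum. An SE is the log2 fold change over the root of its F statistic. The 95% intervals of fold changes come from that SE and include the spread between libraries. Floors of 3 counts cover counting error only. Permutation tests were exact on log2 ratios. No 2 replicates were copies: the chi-square statistic between them was at least 78.9 times its degrees of freedom.

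The members, the 15 gene lists and the tests were chosen with earlier results of these data known. Named genes were the 10 members, up to 4 called genes of each list in each direction by smallest p, the other CXC ligands and receptors, and for Cxcl2, Cxcr2 and Cxcl16 the 3 genes of nearest profile with a mean of at least 5 CPM. Ly6g, Gp9, Itga2b, Ifng and Zmynd15 were named beyond that rule, after their values were seen. Alternatives were other scalings and filters, DESeq2 1.42.0, limma-voom (limma 3.58.1), a replicate block, libraries left out, and neutrophil markers left out. The same alternatives for genes outside the 10 were added after seeing the data. The fits were tested beforehand on simulated counts.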

Additional observations from a re-analysis of the deposited data

How the results depend on the processing

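In the wound, the 1666 genes called became 3368 with library totals only (714 higher and 2654 lower, or 21.2% higher, against 66.1% higher), with the median of all tested genes at -0.42 in place of -0.03. They became 3135 by DESeq2, 2985 with the replicate block and 0 without both libraries numbered 2 (smallest adjusted p 0.198, 2212 genes at an unadjusted p under 0.05). Leaving out 1 library gave 0 to 1347, with 0 without Eff+ 2 (3260 at an unadjusted p under 0.05), 189 without Eff- 2, 451 without Eff- 1, 820 without Eff+ 3 and 901 without Eff- 3. The 2 of the 10 genes called became 4 with a 1 CPM filter, by DESeq2 and by limma-voom, adding Cxcl2 and Cxcr4. Those fits called 1984 of 11689, 3135 of 14908 and 1967 of 14908 tested genes, against 1666 of 14908 in the main fit. Upper quartile scaling added Cxcr4 alone (1671 of 14908 genes called), and no filter added Cxcl2 alone (1826 of 25925). The members called were 0 without both libraries numbered 2, and ranged from 0 to 2 when 1 library was left out. In culture, 0 genes called became 2 with no filter, 2 by DESeq2, 48 with the replicate block and 0 to 27 with 1 library left out (25 without Eff+ 1, 27 without Eff- 2), none of them among the 10. For the difference between models, 0 genes became 517 with no filter, 797 by DESeq2, 441 with the block and 0 to 2009 with 1 library left out (2009 without culture Eff- 2, 7 without culture Eff+ 1, 4 without culture Eff- 1). Of the 10 genes, 2 were then called with no filter (Pf4, Cxcr2), 2 by DESeq2 (Cxcr2, Cxcr4), and 0 to 3 with 1 library left out (Pf4, Cxcr2 and Cxcr4 without culture Eff- 2). Leaving out a library leaves fewer samples, and in culture a lone one assumed to vary like the other group. The causes of the other changes were not tested.

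Same-numbered wound libraries deviated together with correlations of 0.41, 0.017 and 0.23. No label pairs them, so the main fits did not pair them by number. In culture, with 2 libraries a group, the correlations of same numbers (0.74) and of different numbers (-0.74) mirror each other by construction. No label pairs the culture libraries either. Both wound libraries numbered 2 stood apart in Lyz2, and both culture libraries numbered 1 in the number of genes with counts. Whether same-numbered libraries share an origin was not tested. In the wound, library 2 of Eff+ correlated better with Eff- 3 (0.15) than with its own number. With the replicate block 6 of the 10 were called in the wound (Cxcl2, Cxcl16, Ppbp, Pf4, Cxcr2, Cxcr4), 0 in culture and 4 for the difference between models (Ppbp, Pf4, Cxcr2, Cxcr4). Of all tested genes, the block called 2985 of 14908 in the wound, 48 of 14867 in culture and 441 of 20270 for the difference.

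Signs turned only in genes that were not called. In the wound these were Cxcl5 with totals only (-0.16) and without Eff+ 3 (-0.51) or Eff- 1 (-0.19), Cxcl9 without Eff- 2 (0.31) or both libraries numbered 2 (0.49), and Ppbp without Eff- 3 (0.078). In culture they were Cxcl1 (-0.30) and Ppbp (-0.22) without Eff+ 1, Cxcl2 without Eff+ 2 (0.08) or Eff- 2 (0.67), and Cxcl16 without Eff- 2 (0.21). For the difference between models they were Cxcl3 with totals only (-0.065), without wound Eff- 1 (-0.03), culture Eff+ 1 (-0.13), culture Eff- 2 (-0.51) or both wound libraries numbered 2 (-0.077), Cxcl16 with totals only (-0.29), without culture Eff+ 1 (-0.29) or culture Eff- 2 (-0.77), and Cxcl9 without culture Eff- 1 (-0.29). With 1 library left out, the values of these genes ranged in the wound from -0.51 to 0.66 (Cxcl5), -1.26 to 0.31 (Cxcl9) and -1.97 to 0.078 (Ppbp). In culture they ranged from -0.30 to 1.42 (Cxcl1), -0.22 to 2.06 (Ppbp), -0.53 to 0.67 (Cxcl2) and -1.38 to 0.21 (Cxcl16). For the difference they ranged from -0.51 to 1.04 (Cxcl3), -0.77 to 0.59 (Cxcl16) and -0.29 to 6.15 (Cxcl9). Cxcl2 was called in the wound in 7 of 16 alternatives, with 0.96 to 1.72, and Cxcr4 in 5, with 0.12 to 0.57. Depth limits Cxcr2 and Cxcl9 in culture, with at most 28 and 15 counts a library.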
